A study of Mus musculus with 14 samples.

Results

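Aortas with their perivascular fat were compared between male mice without apolipoprotein E and without the lymphotoxin beta receptor (ApoE-/-LTbR-/-, 4 arrays, called double-deficient here) and littermates that lacked apolipoprotein E alone (ApoE-/-, 4 arrays, ApoE-deficient). These 8 arrays are all the aorta arrays among the 14 of the series, and the other 6 hold CD115+ cells of peripheral blood from the same genotypes, 3 against 3. Every mouse therefore carried the Apoe deletion, ate a Western type diet for 4 weeks from 8 weeks of age and was 12 weeks old at sampling. For each array 1 ng of total RNA from a single sample was amplified and labelled with biotin. No wild-type mice and no animals on ordinary chow enter the comparison, so it is one between hyperlipidaemic mice with and without the receptor. How the deletions were made and in which cells they act is not given in the sources used here. The labels do not say whether each array came from a different mouse, and p-values then measure only the spread among these samples, which may be technical.

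The lymphotoxin beta receptor sits on stromal, endothelial and myeloid cells and is engaged by the membrane lymphotoxin heterotrimer of lymphocytes and by LIGHT. Its signal runs through the kinase NIK to the RelB and p52 form of NF-kB and turns on lymphoid chemokines, adhesion molecules and the genes of high endothelial venules, where blood lymphocytes cross into lymph nodes. Mice born without the receptor lack lymph nodes and Peyer's patches, and in the aorta of hyperlipidaemic mice the same pathway is known for its part in the lymphoid tissue that forms in the adventitia next to plaques.

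Each value below is a log2 signal of a gene, as deposited, on a scale on which the median of the 8 aorta arrays is 0, so values compare arrays for 1 gene and never 1 gene with another. Values of a gene are given in the order of replicates 1 to 4, the double-deficient arrays first. A difference is the double-deficient mean minus the ApoE-deficient mean, so a negative one is lower in double-deficient aorta, and its fold is 2 to that power. Differences were tested with limma over 22180 genes, and a gene is said to have risen or fallen only where its adjusted p was under 0.05. Gene groups are read at an unadjusted p under 0.05 and by whether the 4 values of one group lay wholly below or above those of the other, each set against the same count over all genes. In whole tissue, fewer cells of a type and less RNA per cell cannot be told apart.

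The centred values hold no level, but their rounding step was read as a mark of high signal before centring. This reading assumes how the values were stored, which the sources used here do not give. So marked were 3146 genes (14.18%), read as having at least 1 probe set with a raw log2 value between 8 and 16 on all 8 arrays. Among these were 17 of the 17 white adipocyte genes measured (Adipoq among them), 7 of 11 brown adipocyte genes (Ucp1 among them) and 12 of 20 contractile smooth muscle genes (Myh11 among them) of the labelled tissue. Adipoq, the fat hormone adiponectin, differed by -0.01 (SE 0.08) and Ucp1, the uncoupling protein of brown fat, by -0.06 (SE 0.12). Apoe itself stood at -0.02, 0.07, 0.28 and 0.05 against 0.02, -0.49, -0.30 and -0.13. Its groups overlapped at 1 ApoE-deficient array, and the difference was 0.32 (SE 0.12, unadjusted p = 0.0297 and adjusted p = 0.594 in limma). All of these mice carry the Apoe deletion.

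Several aorta arrays carried genes of other organs at high values, and this bears on what follows. ApoE-deficient replicate 2 held exocrine pancreas genes: Sycn, a protein of zymogen granules, stood at 7.25 there and between -0.27 and 0.20 on the other 7 arrays, and the 16 pancreas genes averaged 6.13. The same array and double-deficient replicate 3 held airway genes (13 genes, means of 4.32 and 4.51), such as Scgb1a1 of club cells at 6.15 and 6.50. Sftpc, of alveolar type II cells, stood at 6.38 on ApoE-deficient replicate 2. ApoE-deficient replicate 3 held adrenal cortex genes (6 genes, mean 4.93), with the steroid 11-hydroxylase Cyp11b1 at 5.96 and the cholesterol transporter Star at 5.83, and chromaffin cell genes (8 genes, mean 1.99). Heart genes averaged 2.80 on double-deficient replicate 3, led by Nppb at 4.60, and genes of neurons 1.55 on double-deficient replicate 2. These genes and lists were chosen after their values had been seen.

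Skeletal muscle genes ran from -1.34 (ApoE-deficient replicate 1) to 1.97 (ApoE-deficient replicate 3) as a mean of 15 genes, and were high on double-deficient replicate 4 (1.28) and low on the other 3 of its group. Counting genes that stood more than 2 above every other array, ApoE-deficient replicate 2 had 35, ApoE-deficient replicate 3 had 20, double-deficient replicate 3 had 8 and the other 5 arrays had 0 or 1 each. How these genes came onto these arrays was not tested. Results that rest on one of these arrays are therefore also given without it.

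**Figure D1:**
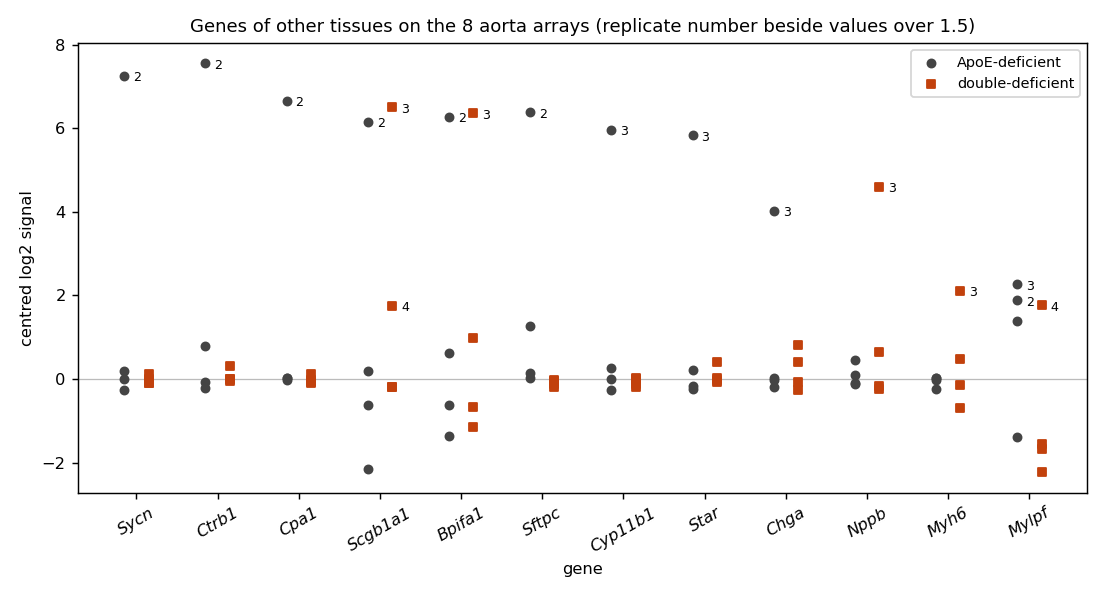
Centred log2 signal (y axis) of 12 genes of other tissues (x axis) on the 8 aorta arrays, with ApoE-deficient arrays as circles and double-deficient arrays as squares. Only high values carry their replicate number. Pancreas genes stand out on ApoE-deficient replicate 2 alone (Sycn at 7.25), airway genes on that array and double-deficient replicate 3, and adrenal genes on ApoE-deficient replicate 3 (Cyp11b1 at 5.96).

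Across all genes, 1 fell in double-deficient aorta (0.00451% of those tested) and 0 rose at the adjusted threshold in limma. At an unadjusted p under 0.05, 846 genes were lower (3.81%) and 867 higher (3.91%), and the groups did not overlap for 467 lower (2.11%) and 486 higher (2.19%) genes. The counts were level, but the sizes were not. Of genes at that unadjusted p, 138 were at least 2-fold lower and 16 at least 2-fold higher.

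**Figure D2:**
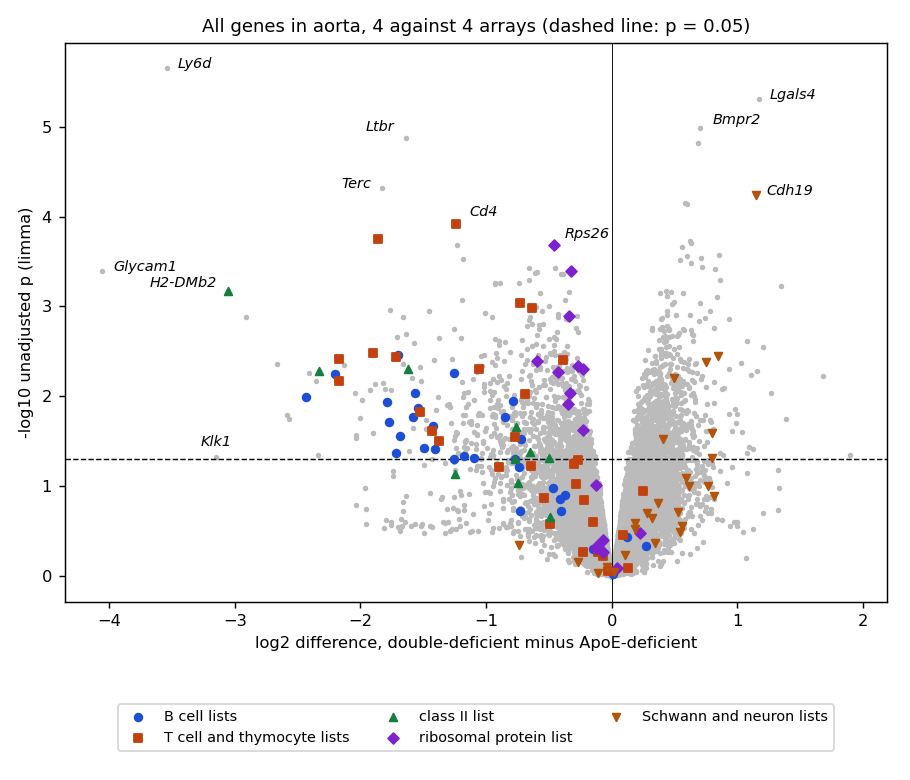
Log2 difference (x axis, double-deficient minus ApoE-deficient) against -log10 of the unadjusted limma p (y axis) for the 22180 genes of aorta, with lists coloured by kind and a dashed line at the unadjusted threshold. Lymphocyte and class II genes lie to the left with differences down to -3.05, ribosomal protein genes close to 0 on the negative side, and nerve genes to the right.

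Ly6d, a small surface protein anchored in the membrane and known from B lymphoid progenitors, was the gene that fell. It stood at -1.57, -1.32, -1.99 and -2.43 on the double-deficient arrays and at 2.21, 1.95, 1.38 and 1.32 on the ApoE-deficient ones. All 4 double-deficient values lay far below the 4 others, ApoE-deficient replicate 3 included. The difference was -3.54 (SE 0.29, 11.7-fold lower, adjusted p = 0.0495), and between -3.71 and -3.34 with any 1 array left out. Its adjusted p lies at the edge of the threshold and ran from 0.0106 to 0.206 over the alternatives tried. Of the other 12 measured genes of its family, Ly6c2 of inflammatory monocytes (-1.07) and Ly6i (-0.22) were lower at an unadjusted p under 0.05. With Ly6d this made 3 of 13, beside 3.81% of all genes. The 3 became 1 without double-deficient replicate 2 or 4 or ApoE-deficient replicate 1 or 2. They became 2 without double-deficient replicate 1 and 4 without double-deficient replicate 3. The remaining 10 had differences between -0.41 (Ly6k) and 0.45 (Slurp1).

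Ltbr, the deleted gene, was measured first as a check of the labels. Its values were -0.98, -1.10, -1.29 and -0.49 on the double-deficient arrays against 0.63, 0.49, 0.70 and 0.89, and every array lay on the side its label gives. The difference was -1.64 (SE 0.17), 3.12-fold lower, with an exact two-sided permutation p of 0.02857, the smallest that 4 against 4 allows. In limma its adjusted p was 0.0679, just outside the threshold, and 0.00598 when the 14 arrays of the series shared 1 estimate of the spread, within a range of 0.00598 to 0.289 over the alternatives. It also passed without double-deficient replicate 4 (adjusted p = 0.019) and without ApoE-deficient replicate 3 (adjusted p = 0.0371). The sources used here do not say whether the probe set falls inside the deletion. In the CD115+ blood cells the same difference was -0.72.

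The receptor's own ligands and relatives were read next. Ltb, the chain that ties lymphotoxin to the cell membrane, stood at -0.41, -0.34, -0.22 and -0.13 against 3.55, 3.01, 0.13 and 2.87. The groups did not overlap, but ApoE-deficient replicate 3 lay with the double-deficient arrays rather than with its own group. The difference was -2.66 (SE 0.67, adjusted p = 0.461 in limma), and without that array Ltb was at -3.42 and fell. Lta, the soluble partner chain, was at -0.51 (unadjusted p = 0.048). Tnf (-0.23), Tnfsf14, which encodes LIGHT (-0.09), and the receptor genes Tnfrsf14 (-0.05), Tnfrsf1b (-0.25) and Tnfrsf1a (0.31) did not pass even the unadjusted threshold.

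Of 11 measured genes of the noncanonical NF-kB route, 10 had negative differences (47.2% of all genes did), with a median of -0.32 beside 0.0083 over all genes. At an unadjusted p under 0.05, 6 were lower, beside 3.81% of all genes. They were the BAFF receptor Tnfrsf13c (-1.15) and Cd40 (-0.46), both carried by B cells, the ubiquitin ligases Birc2 (-0.39) and Birc3 (-0.57), the RANK ligand Tnfsf11 (-0.26), and Relb itself (-0.32). Relb stood at 0.00 or below on the double-deficient arrays and at 0.00 or above on the ApoE-deficient ones. The NIK gene Map3k14 was at -0.01 and Nfkb2, the source of p52, at -0.33 without passing.

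High endothelial venule genes held the largest difference with separate groups. Glycam1, the sulphated mucin that presents ligands of L-selectin, stood at -1.03, -1.07, -1.84 and -0.70 against 3.89, 3.86, 0.70 and 3.13. The 4 double-deficient values were all below the lowest ApoE-deficient value, which again was that of replicate 3. The difference was -4.06 (SE 0.69, 16.7-fold lower, adjusted p = 0.296), and Glycam1 fell without ApoE-deficient replicate 3 (-4.79) and when the 14 arrays were fitted together. Enzymes that build the ligand's sugar were lower at an unadjusted p under 0.05 too.

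Gcnt1, the core 2 branching enzyme, was at -0.03, -0.18, -0.12 and -0.16 against 0.03, 1.01, 1.09 and 0.64, a difference of -0.82. Chst4, the sulphotransferase of these venules, differed by -0.83. In both, ApoE-deficient replicate 3 lay well above every double-deficient array. Of the 10 venule genes measured, 8 were negative and 3 were lower at that threshold, beside 47.2% and 3.81% of all genes. The venule adhesion molecule Madcam1 (-0.49) did not pass, nor did Fut7 (-0.10) or Cd34 (0.01).

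None of 6 genes of lymphoid chemokines and their receptors had separate groups, and their median was -0.55. Of the 6, 2 were lower at an unadjusted p under 0.05, beside 3.81% of all genes. The count was 3 without ApoE-deficient replicate 4, 2 without ApoE-deficient replicate 3 and 1 without any other array. Cxcr5, the receptor that brings B cells to follicles, was at -1.17 and Ccr7, which brings naive cells and dendritic cells to T cell zones, at -1.08. Cxcl13, which encodes the ligand of Cxcr5 and is a textbook target of the lymphotoxin beta receptor, was uneven within both groups, at 0.55, -1.19, -0.08 and -2.72 against 0.20, 0.08, -1.99 and 0.12. The spread within each group exceeded the difference of -0.47 (SE 0.78). Ccl19 and Ccl21a were not analysed here, since no probe set carried either symbol alone.

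B cell genes were low in nearly every member. Of 18 measured genes of the B cell receptor and its signalling, 18 were negative (47.2% of all genes were) and 15 were lower at an unadjusted p under 0.05 (3.81% of all genes were), with a median of -1.34. Ms4a1, which encodes CD20, stood at -0.21, -0.42, 0.07 and -0.07 against 3.29, 3.39, -0.11 and 2.53. Cd79b, a signalling chain of the receptor, stood at -0.65, -0.48, -0.06 and 0.06 against 2.44, 2.45, -0.90 and 1.76. For both, ApoE-deficient replicates 1, 2 and 4 were high and replicate 3 was level with or below the double-deficient arrays.

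The B cell differences were -2.43 (SE 0.72) for Ms4a1 and -1.72 (SE 0.71) for Cd79b. Cd79a, the other signalling chain, was at -2.21, and the inhibitory receptor Cd22 at -1.70, both with separate groups. Cr2, the complement receptor CD21 of B cells and follicular dendritic cells, was at -2.41 and the IgE receptor Fcer2a, also of both cells, at -2.57. Of 13 B cell transcription factor genes 6 were lower at an unadjusted p under 0.05, beside 3.81% of all genes. The 6 became 9 without ApoE-deficient replicate 3 and 2 to 4 without any other array. Among the 6 were Spib (-1.69) and the Oct coactivator Pou2af1 (-1.49). Jchain, which joins secreted IgA and IgM, was at -2.03, while 9 of the 12 plasma cell genes did not pass.

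The B cell list mean was 1.61, 1.76, -0.28 and 1.01 on ApoE-deficient replicates 1 to 4 and between -0.52 and -0.16 on the double-deficient arrays. ApoE-deficient replicate 3 therefore lay inside the double-deficient range. Without it all 18 genes were lower at an unadjusted p under 0.05, beside 5.16% of all genes, the median was -1.80, and 7 passed the adjusted threshold. Without any other array fewer genes were lower than with all 8 arrays: 8 without ApoE-deficient replicate 1, 9 without ApoE-deficient replicate 2 or double-deficient replicate 4, and 10 to 12 without each of the others. Without ApoE-deficient replicate 1 the median was -1.12, and Ms4a1 was between -3.23 and -2.06 over all such fits.

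T cell genes had smaller differences than B cell genes and more members with separate groups. Of 22 measured genes of the T cell receptor and its signalling, 22 were negative, 12 were lower at an unadjusted p under 0.05 (3.81% of all genes) and 6 had separate groups (2.11% of all genes), with a median of -0.71. Cd4, the coreceptor of helper cells, stood at -0.31, -0.59, -0.54 and -0.76 against 1.05, 0.89, 0.31 and 0.51. Cd8a, that of cytotoxic cells, stood at -0.996, -0.38, -1.39 and -1.61 against 0.96, 1.10, 0.38 and 0.62. In both, all 4 ApoE-deficient arrays lay above all 4 double-deficient ones, replicate 3 included though lowest.

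The differences were -1.24 for Cd4 (SE 0.18, 2.35-fold lower, adjusted p = 0.266) and -1.86 for Cd8a (SE 0.28, 3.63-fold lower, adjusted p = 0.286). Both fell in the fit of 14 arrays, and Cd4 also without ApoE-deficient replicate 3. Cd3e of the receptor complex (-1.90), the transcription factors Bcl11b (-0.73) and Lef1 (-1.66) and the chromatin organiser Satb1 (-0.91) had separate groups as well. Cd3g did not: it stood at 0.14, -1.20, -0.52 and -0.72 against 2.17, 2.74, -0.14 and 1.63, with ApoE-deficient replicate 3 inside the double-deficient range. Genes of effector and regulatory T cells were mostly unresolved, with 4 of 18 lower at an unadjusted p under 0.05, beside 3.81% of all genes. The 4 became 2 without double-deficient or ApoE-deficient replicate 4. Among the 4 were the costimulatory receptor Cd27 (-1.20) and Ctla4 (-0.49). Foxp3 (-0.12), Ifng (0.00) and Gzmb (-0.06) did not pass.

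Genes of immature T cells did not share the low values of ApoE-deficient replicate 3. Dntt, the polymerase that adds bases at antigen receptor joints and is used in thymocytes and B cell precursors, stood at -0.82, -0.24, -2.14 and -2.10 against 0.35, 0.42, 0.24 and 0.56. Ccr9, a homing receptor of thymocytes, stood at -0.27, -0.34, -0.39 and -0.19 against 0.21, 0.25, 0.19 and 0.71. The groups were separate for both, and ApoE-deficient replicate 3 lay close to replicates 1 and 2. The differences were -1.72 (SE 0.42) and -0.63 (SE 0.13).

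Themis (-1.06) and Arpp21 (-0.39), both high in developing T cells, had separate groups too, which made 4 of 10 thymocyte genes beside 2.11% of all genes. The thymocyte mean was 0.14, 0.26, 0.20 and 0.16 on the ApoE-deficient arrays and between -0.42 and -0.07 on the double-deficient ones. Other thymocyte genes did not pass: Rag2 was at -0.03 and Ptcra, the pre-T cell receptor chain, at -0.11. Of 9 thymic epithelium genes 1 was lower, beside 3.81% of all genes, and the list median was -0.10. It was Cd83 (-1.01), which B cells and dendritic cells also carry.

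**Figure D3:**
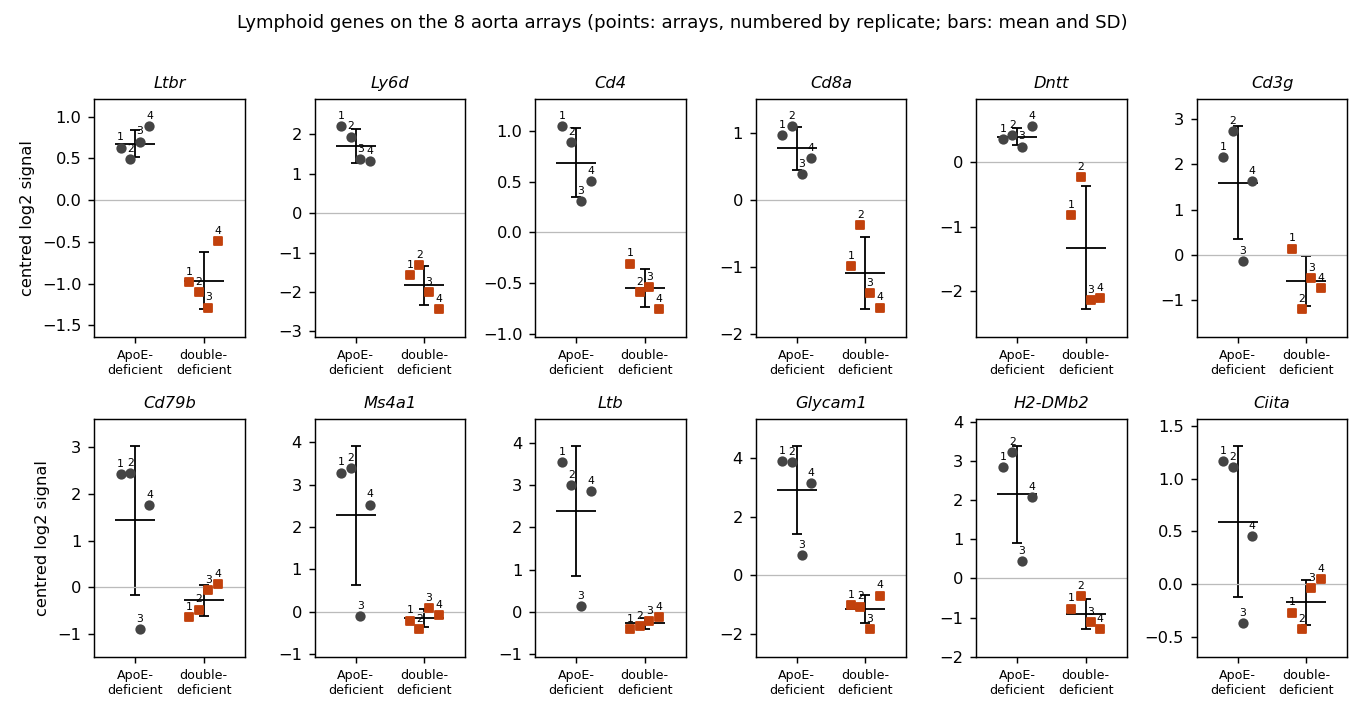
Centred log2 signal of 12 genes on the 8 aorta arrays, ApoE-deficient as circles and double-deficient as squares numbered by replicate, with horizontal lines at the group mean and bars of 1 SD. Ltbr, Ly6d, Cd4, Cd8a and Dntt separate the groups on all arrays, while in Ms4a1 and Cd79b ApoE-deficient replicate 3 sits with the double-deficient arrays.

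MHC class II genes, which present antigen on B cells, dendritic cells and macrophages, were low together, and the promoters of these genes share sequence that the choice of the list did not use. RefSeq promoters (GRCm38.p6, 250 bases before to 50 after the start) were found for 8 of the 10 measured class II genes. All 8 held the core of the Y box, GATTGG or its reverse complement CCAATC, the inverted CCAAT that NF-Y binds, as did 4924 (18.2%) of all 27025 promoters. The 3 class II genes with separate groups and the classical chain gene H2-Aa are printed to show where it lies, 140 bases before to 10 after the start, 5′ to 3′ on the gene's strand, with the core in capitals.
H2-DMb2: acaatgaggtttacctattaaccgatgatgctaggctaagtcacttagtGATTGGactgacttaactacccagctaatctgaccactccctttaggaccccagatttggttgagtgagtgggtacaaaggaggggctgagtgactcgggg
H2-Oa: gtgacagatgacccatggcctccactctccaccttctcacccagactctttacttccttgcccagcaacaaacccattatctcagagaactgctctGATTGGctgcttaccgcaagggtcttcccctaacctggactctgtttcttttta
H2-Ob: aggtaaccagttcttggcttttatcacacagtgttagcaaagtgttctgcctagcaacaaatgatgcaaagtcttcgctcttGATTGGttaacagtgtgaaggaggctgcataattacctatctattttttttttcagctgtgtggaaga
H2-Aa: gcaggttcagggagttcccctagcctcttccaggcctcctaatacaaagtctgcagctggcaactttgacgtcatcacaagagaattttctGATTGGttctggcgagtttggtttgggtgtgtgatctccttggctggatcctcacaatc
These lie at chr17:34145109-34145258 on the plus strand (H2-DMb2), chr17:34092239-34092388 on the plus strand (H2-Oa), chr17:34238765-34238914 on the plus strand (H2-Ob) and chr17:34287814-34287963 on the minus strand (H2-Aa). The core starts at -91 in H2-DMb2, -44 in H2-Oa, -58 in H2-Ob and -49 in H2-Aa, and 12.6% of all promoters hold it in this window of 150 bases. The match describes the letters and is no evidence of binding in these aortas. The octamer ATGCAAAT, read by Oct factors, was in 1 of 26 promoters of B cell genes (Blnk) beside 1.97% of all. The kappaB motif was in 1 of 14 promoters of lymphoid chemokine and venule genes (St3gal6) beside 6.72%. Both strands were searched for each motif.

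Of the 10 class II genes measured, 10 were negative, 7 were lower at an unadjusted p under 0.05 (3.81% of all genes) and 3 had separate groups (2.11% of all genes), with a median of -0.76. The 7 became 9 without ApoE-deficient replicate 3, 6 without double-deficient replicate 1, 3 without double-deficient replicate 3 or ApoE-deficient replicate 2, and 4 without each of the others. H2-DMb2, a chain of the H2-DM editor that loads peptides, stood at -0.77, -0.44, -1.12 and -1.30 against 2.85, 3.22, 0.44 and 2.07, a difference of -3.05 (SE 0.56, 8.31-fold lower, adjusted p = 0.337). H2-Oa and H2-Ob, which form the H2-O regulator found mostly in B cells, were at -2.33 and -1.62. ApoE-deficient replicate 3 was the lowest of its group in each, though above the double-deficient arrays. For H2-Oa it was so only narrowly. It stood at 0.06, next to double-deficient replicates 2 (-0.06) and 4 (-0.09), while ApoE-deficient replicates 1, 2 and 4 stood at 2.95, 2.91 and 2.10. H2-DMb2 and H2-Oa fell without ApoE-deficient replicate 3.

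The classical chains differed less. H2-Aa stood at 0.20, -0.20, -0.74 and -0.60 against 0.64, 0.58, -0.29 and 0.32, and the groups overlapped (-0.65). H2-Ab1 was at -0.74 and H2-Eb1 at -0.49 without passing, and the regulator Ciita, which switches on these promoters, at -0.77. H2-Aa and H2-Eb1 were among the genes of high signal, and the H2-O and H2-DMb2 genes were not. Class I genes were mostly unresolved, with a median of -0.22 and 1 of 12 lower, beside 3.81% of all genes. The 1 became 5 without ApoE-deficient replicate 3 and 2 without double-deficient replicate 1.

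Among innate cells, natural killer genes were negative in 12 of 12 and lower at an unadjusted p under 0.05 in 7, beside 3.81% of all genes, led by the lectin receptor Klrd1 (-1.89), the chemokine Xcl1 (-1.12) and the granule protein Nkg7 (-0.91). The 7 became 4 without double-deficient replicate 2 or 3 or ApoE-deficient replicate 1 or 2. Klrd1 fell without ApoE-deficient replicate 3. Dendritic cell genes went both ways, with 4 of 15 lower and 2 higher at that threshold, beside 3.81% and 3.91% of all genes. The 4 became 2 without double-deficient replicate 4 or ApoE-deficient replicate 1. Siglech (-1.19) of plasmacytoid cells was lower, as was Irf8 (-1.41), which is not particular to 1 kind of dendritic cell and is carried by B cells as well. Batf3, a factor of cross-presenting cells, was higher at 0.10, 0.09, 0.14 and 0.80 against -0.39, -0.46, -0.57 and -0.09. The groups of Batf3 were separate, with a difference of 0.66 (SE 0.18).

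Macrophage genes of the vessel wall were unresolved, with 1 of 15 lower (3.81% of all genes were), and 3 without ApoE-deficient replicate 2 or 3 and 2 without double-deficient replicate 1 or 3. That one was Marco, a scavenger receptor of macrophages in the spleen's marginal zone and lymph node sinuses, which stood at 0.13, -0.49, -0.20 and -0.47 against 3.07, 2.01, -0.13 and 1.98. ApoE-deficient replicate 3 again lay inside the double-deficient range, and without it Marco fell (-2.61). The pan-macrophage genes Adgre1 (0.32), Cd68 (-0.14) and Csf1r (-0.02) did not pass. Foam cell genes had a median of 0.13, and 2 of 16 were higher at an unadjusted p under 0.05. Of all genes 3.91% were higher, and of genes of high signal, which 8 of the 16 were, 7.02%. The 2 were Lpl (0.28) and the lysosomal protease Ctsd (0.17). They became 1 without ApoE-deficient replicate 2, and 3 without double-deficient replicate 2 or 3 or ApoE-deficient replicate 1. The lipid receptor Trem2 (0.15) and Gpnmb (0.60) did not pass.

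Cytokine genes had 5 of 16 lower and 1 higher at that threshold, beside 3.81% and 3.91% of all genes. Without ApoE-deficient replicate 3, 8 were lower, beside 5.16% of all genes. With 1 array left out a higher gene passed only without a replicate 4. Tgfb1, an anti-inflammatory and fibrogenic cytokine, stood at -0.42, -0.54, -0.58 and -0.16 against 1.16, 0.35, 0.30 and 0.16, and Il1a at -0.13, -0.37, -0.28 and -0.05 against 0.86, 0.66, 0.35 and 0.05. The groups were separate for both. ApoE-deficient replicate 4 was the lowest of its group in each, and for Il1a it lay nearer to double-deficient replicate 4 than to its own group. The differences were -0.92 (SE 0.22) and -0.69 (SE 0.17). Il18 (-1.28) and the DNA sensor Aim2 (-0.97) were lower with overlapping groups, and the prostaglandin synthase Ptgs2 (0.74) was the one higher. Il1b (0.08), Il6 (0.10) and Nlrp3 (-0.02) were close to 0. Of 20 interferon response genes 0 were lower and 0 higher at an unadjusted p under 0.05, nor at the adjusted threshold in limma. With 1 array left out, up to 4 were lower (without double-deficient replicate 3) and up to 1 higher.

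ApoE-deficient replicate 3 thus set the size of many results. It was the lowest of the ApoE-deficient arrays for 144 of the 205 genes lower by more than 1, against 34, 4 and 23 for replicates 1, 2 and 4. Without it 69 genes fell (0.311%) and 5 rose (0.0225%) in limma. Leaving out the array that is lowest for such genes widens their difference and narrows the spread of their group. Calls made without replicate 3, here and above, are therefore description and no independent support. Without any 1 of the other arrays, 0 to 2 genes fell and 0 or 1 rose. Of the 69, 27 (39.1%) were in lists of lymphocytes, lymphoid tissue, lymphotoxin signalling, class II, natural killer cells, macrophages or dendritic cells. Those lists hold 194 (0.875%) of all genes measured. Other immune lists, such as class I, monocyte, granulocyte, interferon and cytokine genes, were left out of this count. All lists were chosen with earlier results of these data known, so the shares are description and no test. For 42 of the 69 the value on replicate 3 was within or below the double-deficient range. The array also carried the adrenal genes given above. The part of that in these counts was not tested.

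With 14 arrays in 1 fit, in which the CD115+ arrays lend their spread to the aorta contrast, 8 genes fell (0.0361%) and 11 rose (0.0496%). The 2 fits shared 9 called genes, which is 12.2% of the 74 called without replicate 3 and 47.4% of the 19 called with 14 arrays. Terc, the RNA template of telomerase, fell in both, at -0.89, -1.07, -0.47 and -0.67 against 1.10, 1.54, 0.47 and 1.09 (-1.83, SE 0.23). Its groups were separate. The 5 genes that rose without replicate 3 were Lgals4, Bmpr2, Nbea, Fnip2 and Akap1.

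**Figure D4:**
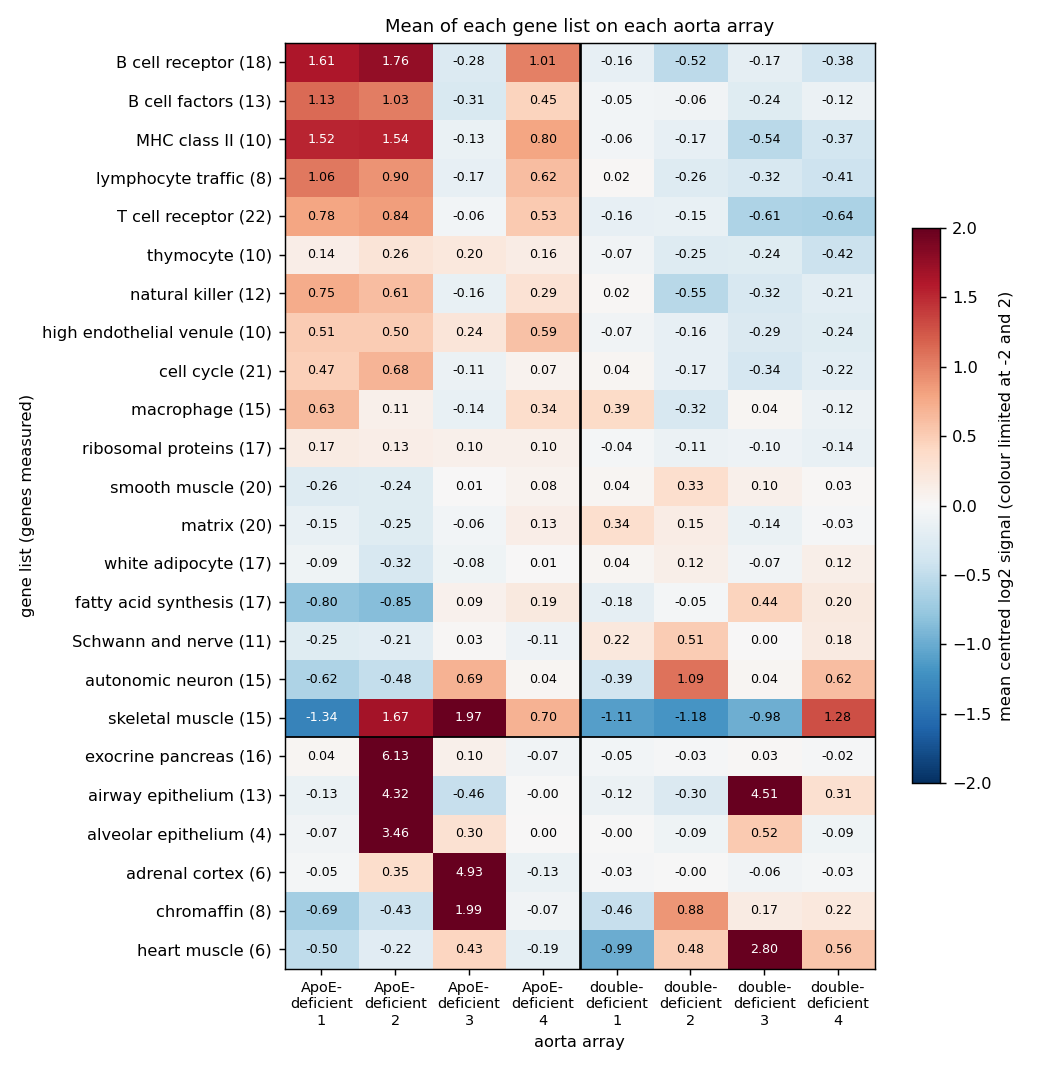
Mean centred log2 signal of each gene list on each of the 8 aorta arrays, with the scale of colour in log2 units. B cell, class II and T cell lists are high on ApoE-deficient replicates 1, 2 and 4 and not on replicate 3 (B cell means 1.61, 1.76, 1.01 and -0.28), and lists of other organs stand out on single arrays.

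Ribosomal protein genes showed small differences with little spread. Of 17 measured, 10 were lower at an unadjusted p under 0.05 and 9 had separate groups, beside 2.11% of all genes, with a median of -0.23. Rps26, of the small subunit, stood at -0.31, -0.12, -0.37 and -0.33 against 0.13, 0.22, 0.18 and 0.19. Rps13 stood at -0.17, -0.25, -0.12 and -0.21 against 0.16, 0.14, 0.12 and 0.13. Each ApoE-deficient array, replicate 3 included, was above each double-deficient one.

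The differences were -0.46 (SE 0.07, 1.37-fold lower) for Rps26 and -0.33 (SE 0.06) for Rps13. Rpl10a (-0.34), Rps3 (-0.43) and Rplp0 of the ribosomal stalk (-0.59) were alike, and Rpl3 (0.04) and Rplp2 (0.22) were not lower. Ribosomal protein genes have many near-identical processed copies in the genome, so these signals are uncertain. Of the 17, 13 were of high signal, a class in which 156 of 3146 genes (4.96%) were lower and 221 (7.02%) higher at that threshold. Proliferation genes, which mark dividing cells, had 20 of 21 negative and 7 lower, beside 3.81% of all genes lower. The 7 became 11 without ApoE-deficient replicate 3, and 3 or 4 without ApoE-deficient replicate 1 or 2 or double-deficient replicate 2, 3 or 4. Among the 7 were Birc5 (-0.89), Ccnb2 (-0.99) and the cyclin Ccnd1 (-0.45). Mki67 (-0.60) did not pass.

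On the higher side the smallest p belonged to Lgals4, a galectin best known from intestinal epithelium. It stood at 0.78, 0.70, 0.90 and 0.41 against -0.54, -0.42, -0.52 and -0.41, and the groups lay apart by more than either spread. The difference was 1.17 (SE 0.11, 2.25-fold higher, adjusted p = 0.0541), just outside the threshold, and it rose without ApoE-deficient replicate 3, without double-deficient replicate 4 and in the fit of 14 arrays. Among the 9 galectins measured, Lgals12 of adipocytes (0.63) and Lgals8 (0.32) also had separate groups, which made 3 of 9 beside 2.19% of all genes. Lgals3, the macrophage galectin, was at 0.01 and Lgals1 at 0.12.

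Genes of bone morphogenetic protein signalling, which in vessels keeps endothelium quiescent, had 3 of 24 higher with separate groups, beside 2.19% of all genes. On the lower side 1 of the 24 had separate groups, beside 2.11% of all genes. Bmpr2, the type II receptor, stood at 0.41, 0.27, 0.31 and 0.44 against -0.32, -0.33, -0.27 and -0.47, and Pcsk6, a protease that matures ligands of the family, at 0.28, 0.42, 0.14 and 0.33 against -0.14, -0.40, -0.60 and -0.56. No array crossed over in either. The differences were 0.71 for Bmpr2 (SE 0.07, 1.63-fold higher, adjusted p = 0.0679) and 0.72 for Pcsk6 (SE 0.12). Bmpr2 rose without ApoE-deficient replicate 3 and in the fit of 14 arrays. Endoglin (Eng), a coreceptor of endothelial cells, was at 0.39.

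Most other members did not pass. Of 24 genes measured 3 were higher and 1, Tgfb1, lower at an unadjusted p under 0.05, beside 3.91% and 3.81% of all genes, and the targets Id1 (-0.03) and Id3 (-0.04) and the type I receptor Acvrl1 (0.05) were near 0. Nbea, a scaffold of vesicle traffic expressed in neurons and endocrine cells, stood at 0.27, 0.27, 0.48 and 0.41 against -0.41, -0.27, -0.36 and -0.29 (0.69, SE 0.07). It rose in the same 2 fits as Bmpr2. The transferrin receptor Tfrc (0.86), which takes up iron, and the cytidine deaminase Cda (0.85) rose only in the fit of 14 arrays among these fits.

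Nerve genes were higher in part. Of 11 Schwann cell genes 10 were positive and 3 had separate groups, beside 2.19% of all genes, with a median of 0.28. Cdh19, a cadherin of Schwann cell precursors, stood at 0.31, 0.85, 0.91 and 0.64 against -0.49, -0.39, -0.69 and -0.31, and Ngfr, the low affinity neurotrophin receptor, at 0.32, 1.23, 0.21 and 0.60 against -0.21, -0.30, -0.23 and -0.26. Neither gene's groups overlapped, although Ngfr was highest on double-deficient replicate 2, the array with high genes of neurons.

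The differences were 1.15 for Cdh19 (SE 0.15, 2.21-fold higher, adjusted p = 0.179) and 0.84 for Ngfr (SE 0.21). Cdh19 rose in the fit of 14 arrays. The sodium channel gene Scn7a was at 0.50, and the defining regulator Sox10 at -0.03 and myelin Mbp at 0.02, neither past the threshold. Of 15 genes of autonomic neurons 4 were higher at an unadjusted p under 0.05, beside 3.91% of all genes, among them the filament genes Prph (0.75) and Nefm (0.80). The 4 became 10 without double-deficient replicate 1, 2 without ApoE-deficient replicate 3, and 1 without double-deficient replicate 2 or 4 or ApoE-deficient replicate 1 or 2. The list mean was -0.39, 1.09, 0.04 and 0.62 against -0.62, -0.48, 0.69 and 0.04, so the groups overlapped, and its median was 0.56 with all arrays and 0.30 without double-deficient replicate 2.

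**Figure D5:**
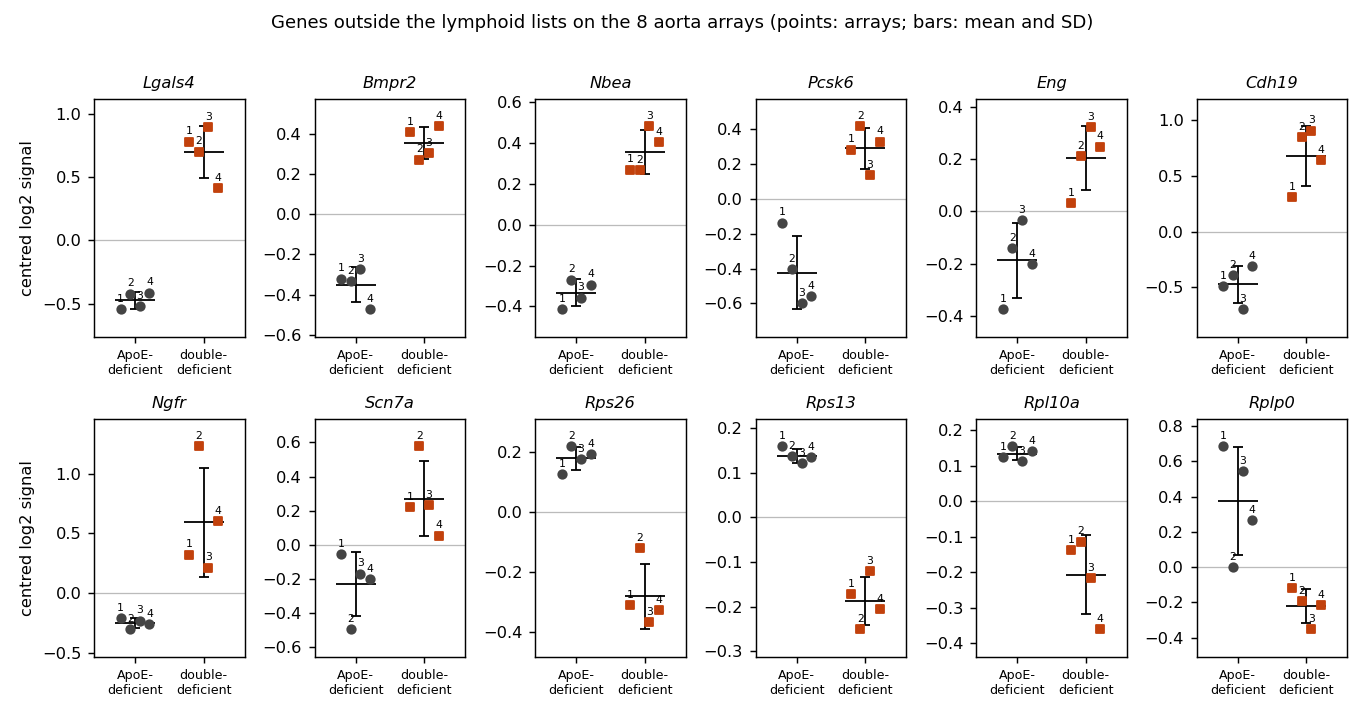
Centred log2 signal of 12 genes outside the lymphoid lists on the 8 aorta arrays, ApoE-deficient as circles and double-deficient as squares numbered by replicate, with lines at the group mean and bars of 1 SD. Higher genes such as Bmpr2 (0.27 to 0.44 against -0.47 to -0.27) and lower ribosomal genes such as Rps13 separate the groups on every array.

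Genes of the vessel wall and fat had positive medians and few members past the unadjusted threshold. Contractile smooth muscle genes had 3 of 20 higher (median 0.27), among them the actin Actg2 (0.53), the integrin Itga8 (0.56) and the light chain kinase Mylk (0.31). Endothelial genes had 1 of 20 higher, Eng (median 0.19), matrix genes 2 of 20, with the collagen Col5a2 (0.60) and Bgn (0.26), and adventitial fibroblast genes 0 of 12 (median 0.14), and 0 at the adjusted threshold in limma. With 1 array left out the higher genes numbered 2 to 6 for smooth muscle and 1 to 4 for endothelium. They numbered 1 to 5 for matrix and 0 to 2 for fibroblasts. The most came without double-deficient replicate 4 for smooth muscle and without double-deficient replicate 3 for the rest. Endothelium had as many without ApoE-deficient replicate 3. These medians stand beside 0.0083 over all genes and 0.0448 over genes of high signal. The counts with all arrays stand beside 3.91% of all genes and 7.02% of genes of high signal. Timp1, an inhibitor of matrix proteases, was at 1.60, -0.07, 1.23 and 0.07 against -1.39, -1.04, 0.07 and -0.38, with overlapping groups.

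White adipocyte genes had 2 of 17 higher, beside 7.02% of genes of high signal, and a median of 0.16. The 2, with the lipase Lipe (0.23) among them, became 4 without double-deficient or ApoE-deficient replicate 3. Fatty acid synthesis genes were positive in 17 of 17 (median 0.49), yet 0 passed the unadjusted or the adjusted threshold in limma, and 4 passed the unadjusted one without ApoE-deficient replicate 4. Their mean was -0.80 and -0.85 on ApoE-deficient replicates 1 and 2, 0.09 and 0.19 on replicates 3 and 4, and -0.18, -0.05, 0.44 and 0.20 on the double-deficient arrays. A pair of ApoE-deficient arrays was low and the rest overlapped. Fasn, fatty acid synthase, was at 0.36 and Acaca, acetyl-CoA carboxylase, at 0.53. The median was 0.26 without ApoE-deficient replicate 2.

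Skeletal muscle genes were negative in 15 of 15 (median -1.24), but 1 passed at an unadjusted p under 0.05 (3.81% of all genes were lower) and 0 had separate groups. Mylpf, the fast muscle light chain, stood at -1.55, -2.23, -1.67 and 1.76 against -1.39, 1.88, 2.27 and 1.39. High and low arrays occurred in both groups. Leaving out ApoE-deficient replicate 3 gave a median of -0.79, and leaving out replicate 1 gave -2.02. The count that passed went from 1 to 12 without ApoE-deficient replicate 1, to 5 without double-deficient replicate 4, and to 0 without each of the others but ApoE-deficient replicate 4. Klk1, a tissue kallikrein, had separate groups and a difference of -3.15 that 1 array raised: ApoE-deficient replicate 2, the one with pancreas genes, stood at 6.99, and the other 3 at 1.82, 0.10 and 1.30.

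The low lymphocyte genes of aorta were set beside the same genes in CD115+ blood cells of the same genotypes. In the blood cells the median difference was 1.17 for the B cell list and 0.58 for class II, opposite in sign to aorta. These blood signals were uneven. Cd79a stood at -0.42, 2.07 and 1.19 on the double-deficient arrays against 0.42, -1.12 and -1.19. H2-DMb2 stood at -0.18, 1.88 and 1.08 against 0.18, -1.03 and -0.61. The groups overlapped for both, and the interaction counts that follow take in this blood difference as well as that of aorta. Tested as an interaction, the difference between aorta and blood was lower in aorta at an unadjusted p under 0.05 for 13 of 18 B cell genes, 14 of 22 T cell genes and 8 of 10 class II genes, beside 774 of 22180 genes (3.49%). At the adjusted threshold 0 genes passed the interaction in limma. Ly6d differed by 1.51 in blood, where its 3 double-deficient values (-0.45, 2.29 and 0.87) overlapped the ApoE-deficient ones (0.45, -0.91 and -1.36). Glycam1 (-0.02) and Cd4 (0.00) were near 0 there.

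Genes next to Ltbr on the chromosome were looked at because a deletion made by gene targeting can carry flanking sequence of the donor strain. Of the 24 measured neighbours, 12 on each side, 10 were negative and 1 was lower at an unadjusted p under 0.05, with a median of 0.0721. That gene was Cd27, the T cell gene given above, which lies beside Ltbr and whose difference (-1.20, SE 0.27) cannot be told apart from such an effect. The other 23 had no call in either direction at that threshold. Genes farther out on the chromosome, which may include genes named above such as Cd4, were not looked at. The check says nothing about them.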

How the data were processed

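Gene expression was measured on arrays of biotin-labelled cDNA, 4 double-deficient and 4 ApoE-deficient aortas. The authors' deposited table holds log2 values, each probe set centred on its median over the 8 aorta arrays and separately over the 6 CD115+ arrays. How it was normalised and summarised, and its log base, were not given in the sources used here, so base 2 is assumed. Of 33793 probe sets, 23521 carried 1 gene symbol in the platform annotation and were averaged to 22180 genes (1082 with several probe sets), while 1814 with several symbols and 8458 with none were left out. Groups followed the labels.

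Differences were fitted with limma 3.58.1 (R 4.3.3, lmFit and eBayes) on the aorta arrays, with Benjamini-Hochberg adjustment over all genes and a threshold of 0.05. On data simulated for this comparison, 59.7%, 89.6% and 98.5% of genes changed by 1, 2 and 4 log2 units were recovered, and 14 unchanged genes were called. The simulated noise was normal and independent between genes and arrays. It held no array that stood apart for many genes at once, so these shares do not give the power on the real arrays. Interactions used the 14 arrays.

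Alternatives were re-centring, quantile normalisation, other probe set choices, robust variances, array weights, 14 arrays, high-signal genes, a replicate block and leaving out each array. Named were Ltbr and Apoe, the genes of smallest p or largest separate difference, the members of smallest p in each list (at most 6) and short lists whole. Others, such as defining markers that did not pass and examples of a pattern (Cd79b, Cd3g, Rps3), were picked after their values were seen. Members and lists were chosen with earlier results of these data known. The number of arrays limits the precision.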

Additional observations from a re-analysis of the deposited data

Results flagged for a closer look

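In a group of 4 arrays, an array counts as apart when its gap to the nearest other exceeds the critical share of the group's range in Dixon's test. Of 424 groups looked at (named genes and list means), 32 had such an array, and 18 of these arrays were ApoE-deficient. Of the 32, 10 came from 32 groups of genes and lists of other organs chosen because of their values, and 22 from the other 392, where chance gives about 1 in 20.

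Genes of other organs made up many of them. ApoE-deficient replicate 2 stood apart for exocrine pancreas (list mean 6.13, Sycn at 7.25), airway epithelium (4.32), alveolar epithelium (3.46), the lung and airway list (3.54) and thymic epithelium (0.37). ApoE-deficient replicate 3 stood apart for adrenal cortex (4.93, Cyp11b1 at 5.96 and Star at 5.83), the adrenal and kidney list (3.76) and seminal vesicle (3.10). Double-deficient replicate 3 stood apart for airway epithelium (4.51), the lung and airway list (2.30), alveolar epithelium (0.52) and the mesothelial and epithelial list (1.13). Double-deficient replicate 4 did so for skeletal muscle (1.28, Mylpf at 1.76) and for eosinophil and innate lymphoid type 2 genes (-0.11), and double-deficient replicate 1 for immediate early (0.21) and heat shock genes (0.37).

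Of lymphoid genes, ApoE-deficient replicate 3 stood apart on the low side for Fcer2a (-0.51), Klrd1 (-0.10), Spib (-0.53) and Cxcl13 (-1.99), and ApoE-deficient replicate 4 on the high side for Ccr9 (0.71). Spib was also apart on double-deficient replicate 2 (0.19). Double-deficient replicate 3 stood apart for Il18 (0.15) and Map3k14 (0.20), double-deficient replicate 4 for Batf3 (0.80) and double-deficient replicate 1 for Csf1r (0.71). In the vessel wall, ApoE-deficient replicate 1 stood apart for Acvrl1 (0.65) and ApoE-deficient replicate 4 for Mylk (-0.0028, the highest of its group).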

How the results depend on the processing

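The 1 lower gene past the adjusted threshold became 0 with the probe set of largest SD, with every probe set tested alone, with robust variances, with array weights and among high-signal genes alone, and 8 with 14 arrays. It ran from 0 to 69 with 1 array left out, the most without ApoE-deficient replicate 3. The 0 higher genes became 11 with 14 arrays and ran from 0 to 5 with 1 array left out. At an unadjusted p under 0.05, the 846 lower genes became 123 among high-signal genes and ran from 671 to 1145, and the 867 higher became 203 among high-signal genes and 1352 with 14 arrays, and ran from 647 to 1026. High-signal genes were fewer (3146 tested). Ltbr was at -1.60 with quantile normalisation and -1.62 with array weights. It passed at -1.64 with 14 arrays (adjusted p = 0.00598), and it ran from -1.80 to -1.53 with 1 array left out, passing without ApoE-deficient replicate 3 or double-deficient replicate 4. The 0 genes of the interaction ran from 0 to 30, with 30 without ApoE-deficient replicate 3 and 1 without double-deficient replicate 2.

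The labels give both groups replicates 1 to 4 and do not say whether the numbers pair samples. Same-numbered arrays did not deviate together (correlations of 0.17, -0.15, -0.14 and 0.06), which gives no sign of pairing. With 4 arrays per group these correlations cannot exclude it. With the replicate number as a block 1 gene fell, 0 rose, and 892 and 887 were lower and higher at an unadjusted p under 0.05.

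Of 144 named genes other than Ltbr, 27 turned sign under at least 1 setting, all of them near 0 or carried by 1 array, and none past a threshold. With 1 array left out the ranges were -0.0769 to 0.23 for Acvrl1, -0.0556 to 0.0232 for Adipoq, -0.0512 to 0.10 for Cd34, -0.39 to 0.0323 for Cd68, -0.23 to 0.13 for Csf1r, -0.996 to 0.15 for Cxcl13, -0.28 to 0.0281 for Foxp3, -0.11 to 0.0919 for Id1, -0.16 to 0.13 for Id3, -0.0407 to 0.0188 for Ifng, -0.17 to 0.27 for Il1b, -0.17 to 0.23 for Il6, -0.0814 to 0.14 for Lgals3 and -0.0755 to 0.0231 for Map3k14. They were -0.12 to 0.14 for Mbp, -0.0786 to 0.0213 for Nlrp3, -0.0020 to 1.61 for Nppb, -0.23 to 0.0209 for Ptcra, -0.14 to 0.16 for Rag2, -0.0831 to 0.19 for Rpl3, -0.44 to 2.83 for Scgb1a1, -0.11 to 0.0635 for Sox10, -1.88 to 0.15 for Star, -2.50 to 0.0092 for Sycn, -0.14 to 0.0381 for Tnfrsf14, -0.0063 to 0.25 for Trem2 and -0.14 to 0.0394 for Ucp1. With all arrays kept, quantile normalisation gave 0.0513 for Csf1r and -0.0050 for Lgals3, array weights gave 0.0025 for Ifng, -0.0089 for Il1b, -0.0039 for Lgals3 and 0.0119 for Sox10, and single probe sets gave -0.15 and -0.20 for Rpl3. The causes were not tested. Of 67 list medians, 11 moved by more than the spread of their group under some setting. Depth has no counterpart on arrays, and centred values do not show which genes were near background.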
